A study of Homo sapiens with 12 samples.

Results

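The 10 genes described here are mRNA genes of the mitochondrial genome: MT-ND1, MT-ND2, MT-ND4, MT-ND5, MT-ND6, MT-CYB, MT-CO1, MT-CO2, MT-CO3 and MT-ATP6. They were taken by name, through the Ensembl identifiers of GENCODE v29, from the 16676 genes for which log2 TPM was deposited (TPM is a read count per gene length, scaled to the same total of 1000000 in each library), and all 10 were listed. RNA had been extracted from HCT116, an established human colorectal carcinoma line. The cells were unmodified (WT), carried a knockout of SPARCLE, a long non-coding RNA (KO), or over-expressed that RNA (OE). Each kind was held for 48 h in plain medium (control) or in medium containing 1 µM doxorubicin, an anthracycline that intercalates into DNA and traps topoisomerase II. Each of the 6 groups had 2 biological replicates, lettered a and b, for 12 libraries in all. The labels name neither clones nor the way in which the KO and OE lines were made, so a difference from WT cells and a difference between lines cannot be told apart.

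Mitochondrial DNA is copied and expressed inside the organelle. Its protein-coding genes all specify subunits of the respiratory chain or of ATP synthase. The MT-ND genes encode core membrane subunits of complex I (NADH dehydrogenase) and MT-CYB encodes cytochrome b of complex III. The MT-CO genes encode the catalytic core of complex IV (cytochrome c oxidase), and MT-ATP6 encodes the proton channel subunit of complex V. Both DNA strands are transcribed by POLRMT into long RNAs that cover many genes, and tRNAs lying between the mRNAs are cut out to release them. MT-ND6 is the only mRNA copied from the opposite strand.

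The first and last bases of 4 of these genes are shown, as annotated, because the genes differ in how they stop. The comparisons below return to these 4 genes but use whole genes, not their ends. Whether an mRNA runs on past its annotated end is not shown here. Sequences and positions are those of GENCODE v29 on GRCh38, chromosome M, read 5′ to 3′ along each mRNA. Capitals mark the start codon in the first line of each pair and the stop letters in the second. MT-ND4 occupies positions 10760 to 12137, MT-ND5 12337 to 14148 and MT-CYB 14747 to 15887 on the plus strand. MT-ND6 runs from 14673 down to 14149 on the minus strand and its last base lies next to the last base of MT-ND5.
MT-ND4 start: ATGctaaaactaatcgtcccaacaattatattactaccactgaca
MT-ND4 end: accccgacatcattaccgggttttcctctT
MT-ND5 start: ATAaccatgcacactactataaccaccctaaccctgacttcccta
MT-ND5 end: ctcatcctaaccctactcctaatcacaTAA
MT-CYB start: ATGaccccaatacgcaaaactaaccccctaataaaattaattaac
MT-CYB end: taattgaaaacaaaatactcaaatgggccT
MT-ND6 start: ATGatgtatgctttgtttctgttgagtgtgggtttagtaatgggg
MT-ND6 end: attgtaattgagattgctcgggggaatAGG
MT-ND4 and MT-CYB end in a lone T, as MT-ND2 and MT-CO3 also do, and MT-ND1 ends in TA. In these mRNAs the poly(A) tail completes the stop codon, which is known biology of the organelle. MT-ND5 and MT-ATP6 carry a full TAA, MT-CO2 has TAG, and MT-CO1 and MT-ND6 end in AGA and AGG. MT-ND6 also differs in base make-up, with 35.6% G and 7.05% C, whereas the other 9 hold 9.5 to 16.2% G.

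Some of these genes share bases with a neighbour, and the joins are shown since they limit how reads can be assigned. Capitals mark the stretch that both genes of a pair contain, on the plus strand of chromosome M (8517 to 8596 and 10735 to 10794).
MT-ATP8 and MT-ATP6 overlap: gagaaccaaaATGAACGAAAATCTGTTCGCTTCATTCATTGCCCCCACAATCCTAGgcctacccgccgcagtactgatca
MT-ND4L and MT-ND4 overlap: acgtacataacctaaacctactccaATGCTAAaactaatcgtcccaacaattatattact
MT-ATP8 and MT-ATP6 share 46 bases, and MT-ND4L and MT-ND4 share 7. How reads over shared bases were counted is not given in the sources used here. RN7SL1 and AL139099.4, which GENCODE places at the same spot on the same strand, had equal reads in 12 of 12 libraries. On the opposite strand, AC006064.4 lies inside exons of GAPDH and averaged 53.2 reads against 132392 for GAPDH. Per base this was 0.284% of GAPDH, so a read was seldom counted for a gene on the other strand there.

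Nuclear copies of mitochondrial genes limit the counting as well. Next to each other below stand a stretch of MT-ND2 (chromosome M, 4677 to 4736) with its copy MTND2P28 (chromosome 1, 629847 to 629906) and a stretch of MT-CO2 (chromosome M, 7591 to 7650) with its copy MTCO2P12 (chromosome 1, 632762 to 632821), all on the plus strand. Each pair is the first stretch of 60 aligned bases that holds a mismatch, and the differing base is in capitals. Other stretches hold none, and the longest identical run was 266 bases for MT-ND2 and 108 for MT-CO2.
MT-ND2: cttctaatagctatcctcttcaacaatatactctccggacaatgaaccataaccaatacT
MTND2P28: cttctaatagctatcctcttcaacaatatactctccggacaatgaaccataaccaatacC
MT-CO2: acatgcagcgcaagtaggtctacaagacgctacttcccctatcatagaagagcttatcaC
MTCO2P12: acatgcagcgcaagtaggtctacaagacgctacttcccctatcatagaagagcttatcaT
Over their aligned lengths the copies on chromosome 1 matched MT-ND2 at 98.4% of bases, MT-CO1 at 98.7%, MT-CO2 at 98.2% and MT-ATP6 at 98.5%. Of all windows of 50 bases in a member, the share found without a mismatch in a nuclear copy was 49.5% for MT-CO1, 46.7% for MT-ATP6, 43.6% for MT-ND2, 30.6% for MT-CO3, 29% for MT-CO2, 22.1% for MT-ND1 and 17.9% for MT-ND6. It was 4.76% for MT-ND5, 3.54% for MT-ND4 and 1.19% for MT-CYB. The levels of the first 7 genes are therefore less certain than those of the last 3, since the treatment of reads that match several places is not given in the sources used here.

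Reads on listed genes, recovered from the deposited values, ran from 12599392 to 18570797 per control library and from 24893610 to 30690664 per doxorubicin library. Depth thus went with the medium, and its part in the doxorubicin differences was not tested. SPARCLE had 0 reads in all WT and KO control libraries, 0 to 4 with doxorubicin in WT and KO cells, and 384 to 622 in OE cells. The KO label was thus not checkable at this depth. Of the 8 epithelial markers all were listed and 7 reached 1 TPM, with a summed TPM of 995 to 2185 in control medium and 2678 to 3316 with doxorubicin. Of 7 mesenchymal, 7 leukocyte and 4 endothelial markers, 1 of each list was in the file, summing to at most 6.19, 43.9 and 0.373 TPM. The leukocyte gene listed was CD68, lower with doxorubicin, and PTPRC was not analysed here. The part of these marker differences in the mitochondrial values was not tested. In bulk RNA, fewer transcripts per cell and a larger amount of other RNA cannot be told apart. Small RNAs, 329 genes in the file, held 64.8 to 75.6% of each library's TPM, so levels are also given as shares within the 10 mRNAs. Libraries WT control b and OE control a stood apart in the mitochondrial 12S rRNA MT-RNR1, with 2007 and 1904 TPM against 77.4 to 186 in the other 10. They also had the fewest reads on listed genes, 12951919 and 12599392. The averaged differences of the mitochondrial genes are therefore given with and without these 2 libraries.

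The 10 mRNAs spanned a wide range of levels. MT-CO3 averaged 5617 ± 1085 TPM (SD, n = 12), MT-CO1 3439 ± 595 and MT-CO2 3295 ± 828, so the 3 complex IV mRNAs came first. MT-ATP6 followed at 545 ± 186, MT-ND4 at 447 ± 226 and MT-CYB at 197 ± 79.6. MT-ND1 stood at 125 ± 41.6, MT-ND5 at 117 ± 47.7, MT-ND6 at 89.4 ± 38.5 and MT-ND2 at 74 ± 26.5. MT-CO3 lay above MT-CO1, and MT-CO2 above MT-ATP6, in 12 of 12 libraries. The other neighbours in this order changed places in at least 2 libraries, and MT-ND1 exceeded MT-ND5 in 5 of 12. The 10 mRNAs summed to between 0.906 and 1.74% of a library's TPM and to 3.36 to 5.51% of the TPM on protein-coding genes. By reads, their share ran from 0.693% (95% exact binomial interval 0.689 to 0.697%) in OE control b to 1.12% (1.11 to 1.12%) in WT control b. Such intervals cover counting error only. The spread between replicates was far wider than counting error, and the ranges of the control and doxorubicin libraries overlapped.

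**Figure D1:**
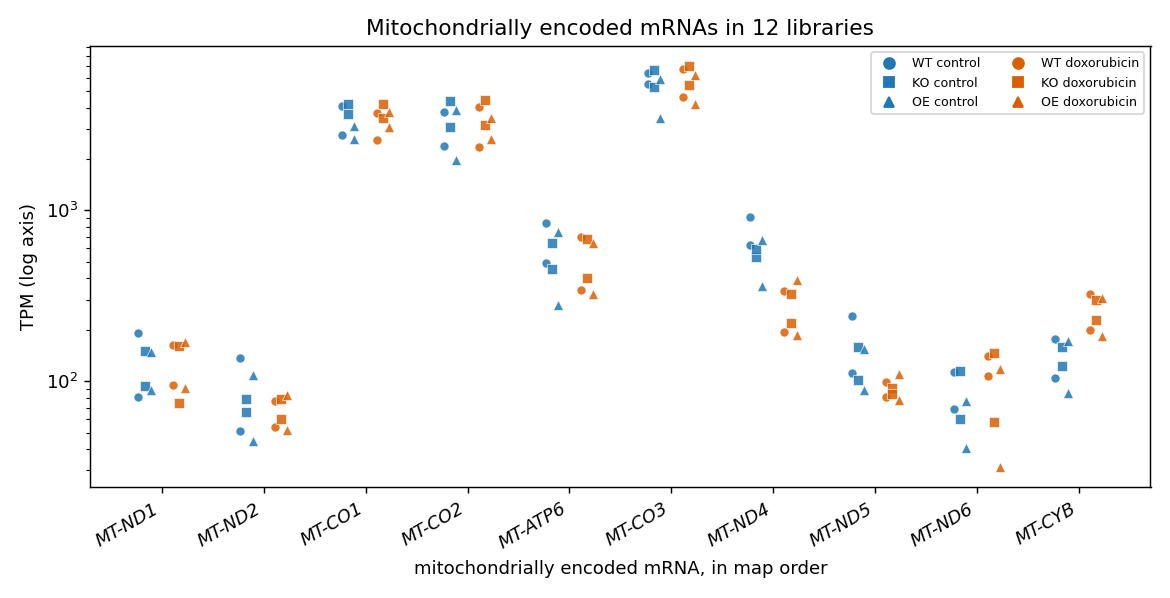
TPM (log axis) of the 10 mitochondrially encoded mRNAs in map order, with 1 point per library, blue for control and orange for doxorubicin, circles for WT, squares for KO and triangles for OE cells. The MT-CYB points with doxorubicin (183 to 326) all lie above those in control medium (85.3 to 177), the MT-ND4 points lie lower with a small overlap (187 to 390 against 360 to 920), and the 3 MT-CO genes stand highest in either medium.

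The main question for these genes was how 48 h of doxorubicin changed them, in each kind of cell and averaged over the 3 kinds. MT-ND4, a proton-pumping subunit of complex I, fell when the 3 kinds of cells were averaged. MT-CYB, the cytochrome b of complex III, rose. MT-ND5, another pumping subunit of complex I, fell less. The other 7 mRNAs did not pass the test. Log2 differences are between TPM + 1 values, which understates changes of low genes, and a call is a limma adjusted p under 0.05. Thus 3 of 10 members were called in the averaged comparison, 1 higher and 2 lower, where 58% of the 15256 genes tested were called (32.2% higher and 25.9% lower).

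MT-ND4 stood in WT cells at 631 and 920 TPM in control medium and at 337 and 194 with doxorubicin. In KO cells it stood at 536 and 595 against 323 and 218, and in OE cells at 672 and 360 against 390 and 187. In WT and KO cells both control values lay above both doxorubicin values, and in OE cells control b lay below doxorubicin a. With 2 libraries per group this is a description only, and no share over all genes is given for it. The log2(TPM + 1) difference averaged over the 3 kinds was -1.17 (SE 0.22, limma adjusted p = 0.000712), from 619 ± 183 to 275 ± 85.8 TPM (SD, n = 6 each). It was called in each of 23 alternative analyses, between -1.35 and -0.93 (adjusted p from 3.91e-05 to 0.00503). Without the 2 libraries high in MT-RNR1 it was -0.93 (limma adjusted p = 0.00503).

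In single kinds of cells, MT-ND4 was called in WT cells only, which does not show that the kinds differ. Its difference was -1.57 in WT (SE 0.39, limma adjusted p = 0.00944), -1.08 in KO (adjusted p = 0.0585) and -0.86 in OE cells (adjusted p = 0.122). The WT call was lost without WT control b (-1.30, adjusted p = 0.0623) or WT doxorubicin b (-1.18, adjusted p = 0.0998). MT-ND4 was the only member called in WT cells, 1 of 10 where 32.2% of all genes were called (12.6% lower). In KO and OE cells limma called 0 of 10 members, where 24.2% and 23% of all genes were called. In each of these, MT-ND4 and MT-CYB had an unadjusted p under 0.05, and both were called by voom on the recovered reads. Leaving out 1 library gave further calls. Without either OE control library or either OE doxorubicin library, MT-ND4 was called in KO cells (limma adjusted p = 0.0338 to 0.0466). Without OE control a or OE doxorubicin b, MT-CYB was called in OE cells (adjusted p = 0.0398 and 0.0436). In WT cells MT-ND5 was called without WT control a (-1.43, adjusted p = 0.029) and MT-CYB without WT control b (1.29, adjusted p = 0.0487).

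MT-CYB stood in WT cells at 104 and 177 TPM in control medium and at 326 and 199 with doxorubicin. In KO cells it stood at 159 and 123 against 300 and 227, and in OE cells at 171 and 85.3 against 307 and 183. All 6 doxorubicin libraries exceeded all 6 control libraries, as held for 15.7% of all genes tested. None of the 10 mRNAs had all doxorubicin libraries below all control libraries in TPM, as 16.3% of all genes had. The averaged difference was 0.92 (SE 0.22, limma adjusted p = 0.00284), from 137 ± 38 to 257 ± 61.4 TPM (SD, n = 6 each). The 3 kinds gave 0.91, 0.89 and 0.96 in WT, KO and OE cells, with adjusted p = 0.079, 0.0981 and 0.0785 by limma. The averaged call was made in 23 of 23 alternatives (0.76 to 1.22), and without the 2 libraries high in MT-RNR1 the difference was 1.22 (limma adjusted p = 0.000416).

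MT-ND5 showed a smaller and less stable difference. In WT cells it stood at 111 and 242 TPM in control medium against 99.1 and 81, in KO cells at 101 and 159 against 90.8 and 84.5, and in OE cells at 155 and 88.7 against 110 and 77.1. In WT and KO cells both control values lay above both doxorubicin values, again as a description only, while OE control b lay below OE doxorubicin a. The averaged difference was -0.58 (SE 0.21, limma adjusted p = 0.0292), from 143 ± 56.6 to 90.4 ± 12.3 TPM (SD, n = 6 each). The call was lost in 7 of 23 alternatives, 5 of which left out 1 library: WT control b (adjusted p = 0.0901), WT doxorubicin b (0.0777), KO control b (0.0873), OE control a (0.088) or OE doxorubicin b (0.0726). Without both libraries high in MT-RNR1 the difference was -0.26 (limma adjusted p = 0.239), so much of its size rested on those 2 libraries.

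**Figure D2:**
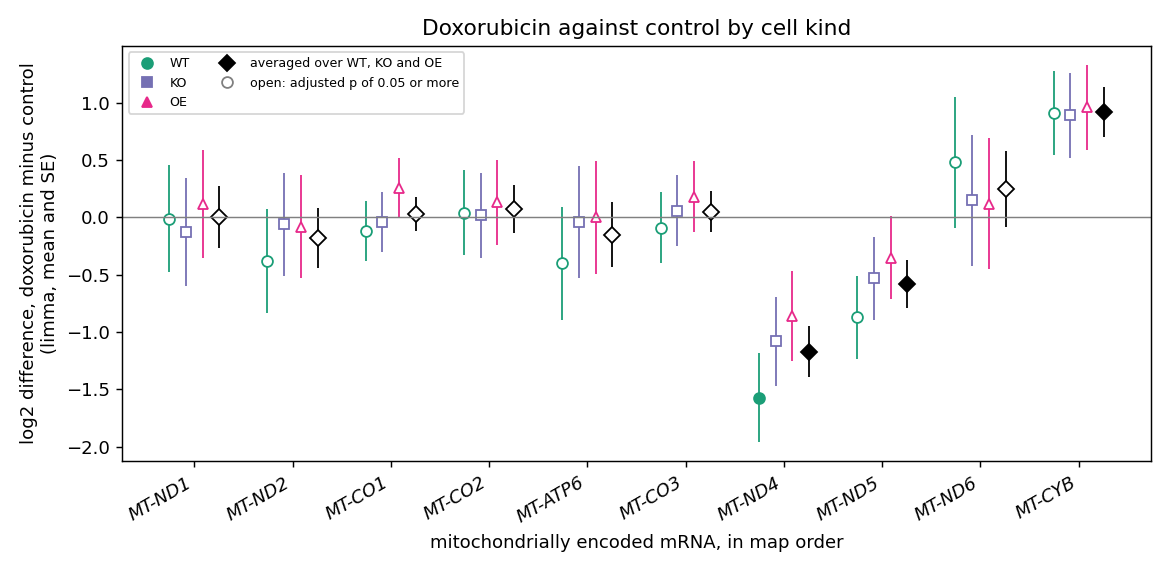
Log2 difference between doxorubicin and control for each mRNA in WT, KO and OE cells and averaged over them, as limma estimates with their SE; filled symbols have an adjusted p under 0.05. MT-ND4 is at -1.17 and MT-ND5 at -0.58 on average, MT-CYB is at 0.92, and the other 7 averages lie between -0.18 and 0.25.

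The averaged differences of the complex IV mRNAs were small in the main analysis. MT-CO1, which encodes the heme and copper subunit, averaged 3412 ± 674 TPM in control medium and 3467 ± 568 with doxorubicin (SD, n = 6 each). Its log2 difference was 0.03 (SE 0.15). MT-CO2, which receives electrons from cytochrome c, differed by 0.07 (SE 0.21), and MT-CO3 by 0.05 (SE 0.18). None of the 3 passed the test, and limma's adjusted p ran from 0.806 to 0.878. Without the 2 libraries high in MT-RNR1 the differences of MT-CO1, MT-CO2 and MT-CO3 were 0.16, 0.34 and 0.21, still not called (adjusted p = 0.192 to 0.449). Their libraries overlapped between the media, from 2573 to 4218 TPM in MT-CO1, 1970 to 4434 in MT-CO2 and 3480 to 7013 in MT-CO3.

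MT-ATP6 of complex V was at 575 ± 206 TPM in control medium and 515 ± 178 with doxorubicin (SD, n = 6 each). Its difference was -0.15 (SE 0.28, limma adjusted p = 0.676), and 0.22 (adjusted p = 0.506) without the 2 libraries high in MT-RNR1. Its libraries ranged from 281 to 839 and from 324 to 697, so the media overlapped almost entirely.

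Of the 5 complex I members, 2 were called lower on average and 3 were not called, where 25.9% of all genes were called lower. The call of MT-ND5, 1 of the 2, held in 16 of 23 alternatives only. MT-ND1, which helps form the ubiquinone site, was at 125 ± 44.5 TPM in control medium and 125 ± 42.8 with doxorubicin (SD, n = 6 each), a difference of -0.00 (SE 0.27). MT-ND2, a pumping subunit, was at 80.8 ± 35.4 and 67.2 ± 13.6 TPM, a difference of -0.18 (SE 0.26). Neither difference exceeded its SE, and limma gave adjusted p = 0.99 and 0.58. Without the 2 libraries high in MT-RNR1 the values were 0.32 for MT-ND1 (adjusted p = 0.326) and 0.27 for MT-ND2 (adjusted p = 0.247).

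MT-ND6, the subunit from the opposite strand, varied most between replicates of a group. WT cells had 68.6 and 113 TPM in control medium against 141 and 107 with doxorubicin. KO cells had 114 and 60.3 against 146 and 57.6, and OE cells 76.7 and 40.8 against 118 and 31.4. WT control b lay just above WT doxorubicin b, and the media overlapped in each kind of cell. The averaged difference was 0.25 (SE 0.33, limma adjusted p = 0.532), and 0.52 (adjusted p = 0.243) without the 2 libraries high in MT-RNR1. Its SE was the widest among the 10 mRNAs, and it rested on 296 to 1409 reads per library.

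Within the 10 mRNAs, shares are free of the scale of a library. In control medium MT-ND4 made up 5.17 and 5.46% of their summed TPM in WT cells, 3.27 and 4.19% in KO cells, and 4.49 and 3.97% in OE cells. The doxorubicin libraries of WT cells had 2.07 and 1.83%, those of KO cells 1.86 and 1.66%, and those of OE cells 2.55 and 1.72%. All 6 doxorubicin shares were below all 6 control shares. MT-CYB went the other way, from 0.851 to 1.14% in control medium to 1.68 to 2.01% with doxorubicin, again with no overlap. The shares of the other 8 mRNAs overlapped between the media, MT-ND5 (0.617 to 1.44% against 0.521 to 0.762%) and MT-ND6 (0.425 to 0.694% against 0.289 to 1%) among them. Shares of reads gave the same split, with 1 mRNA higher, 1 lower and 8 overlapping. In TPM, all 6 doxorubicin libraries lay above all 6 control libraries for 15.7% of all genes tested, and below them for 16.3%. No such figure was computed for shares within a set, so the split is not read as particular to these mRNAs. Shares of a sum are tied to each other, and they are given as a description.

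**Figure D3:**
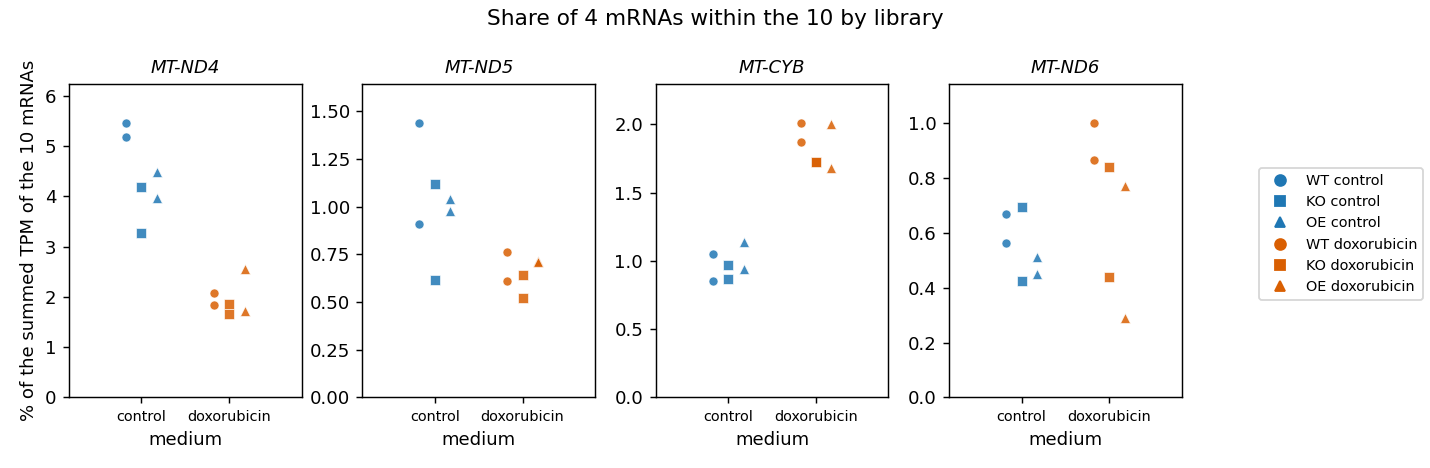
Percent of the summed TPM of the 10 mRNAs taken by MT-ND4, MT-ND5, MT-CYB and MT-ND6 in each library, by medium, with circles for WT, squares for KO and triangles for OE cells; each vertical axis starts at 0. The MT-ND4 shares with doxorubicin (1.66 to 2.55%) lie below those in control medium (3.27 to 5.46%), the MT-CYB shares lie above (1.68 to 2.01% against 0.851 to 1.14%), and those of MT-ND5 and MT-ND6 overlap.

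The clearest single measure was the ratio of MT-CYB to MT-ND4 in TPM. In control medium WT cells gave 0.164 and 0.192, KO cells 0.298 and 0.206, and OE cells 0.255 and 0.237. With doxorubicin WT cells gave 0.97 and 1.02, KO cells 0.927 and 1.04, and OE cells 0.786 and 0.977. Every doxorubicin library thus stood at 0.786 or more and every control library at 0.298 or less. This ratio was picked after its parts had been seen, and has no test. Set against MT-CO1, MT-ND4 ran from 0.138 to 0.227 in control medium and from 0.0604 to 0.103 with doxorubicin, and MT-CYB from 0.0291 to 0.0549 and from 0.0591 to 0.0882. The ratio of MT-ND5 to MT-ND4 was 0.176 to 0.268 in control medium and 0.281 to 0.417 with doxorubicin, again without overlap. Most of these ratios contain MT-ND4, so they largely repeat its change. None has a test, and how often ratios of other gene pairs separate was not computed. Among single genes, 15.7% lay higher and 16.3% lower in all 6 doxorubicin libraries than in any control library. By contrast MT-CO2 to MT-CO1 (0.732 to 1.23 against 0.848 to 1.09) and MT-CO3 to MT-CO1 (1.25 to 1.98 against 1.36 to 1.81) overlapped.

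The file lists 14 more genes of the mitochondrial genome, which place the 10 mRNAs on their map. MT-ND4L, a small complex I subunit whose mRNA is joined to that of MT-ND4, had 361 ± 85.7 TPM in control medium and 248 ± 54.8 with doxorubicin (SD, n = 6 each). It fell by 0.53 (SE 0.18, limma adjusted p = 0.0199), where MT-ND4 fell by 1.17. The call of MT-ND4L was lost without WT control b (adjusted p = 0.0598), WT doxorubicin b (0.067), OE control a (0.0628) or OE doxorubicin b (0.0576), and without both libraries high in MT-RNR1 its difference was -0.33 (0.153). Scaling to the geometric mean of the 10 mRNAs ended it as well (-0.46, adjusted p = 0.213). The ratio of MT-ND4 to MT-ND4L was 1.53 to 1.84 in control medium and 0.938 to 1.22 with doxorubicin, without overlap. It contains MT-ND4 as well and has no test. Both genes are read from 1 bicistronic mRNA in textbook accounts. MT-ND3, another complex I subunit, differed by 0.45 (limma adjusted p = 0.0618) and was called when both of those libraries were left out (0.68, adjusted p = 0.0135) or when WT control b, WT doxorubicin b, KO control a or OE control a alone was left out (adjusted p = 0.0177 to 0.0352). It was also called without small RNA genes (0.55, adjusted p = 0.0246) and with a replicate block (adjusted p = 0.0472). MT-ATP8, which overlaps MT-ATP6, differed by 0.18 (limma adjusted p = 0.685), and by 0.69 (adjusted p = 0.0636) without both of those libraries. The rRNAs were not called, MT-RNR1 at -1.11 (SE 0.67, adjusted p = 0.174) and MT-RNR2 at -0.37 (adjusted p = 0.379), and both were highest in the 2 control libraries named above. MT-RNR1 was called lower without WT control a (adjusted p = 0.0233) or OE control b (0.0111), and when scaled to the geometric mean of the 10 mRNAs (0.00185). Without the 2 high libraries MT-RNR1 stood at 0.22 (0.467) and MT-RNR2 at 0.23 (0.443), neither called.

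Of 9 tRNA genes listed, 7 were called, 4 higher and 3 lower, where 32.2% of all genes were called higher and 25.9% lower. MT-TC, on the minus strand, rose by 1.94 (SE 0.23, limma adjusted p = 1.93e-05), from 5.68 to 15.7 TPM in control medium to 28.4 to 42.8 with doxorubicin. MT-TS2 rose by 1.66 (adjusted p = 1.52e-05) and MT-TH by 1.34 (adjusted p = 0.00204). These 2 lie next to each other between MT-ND4 and MT-ND5, both called lower in the main analysis. MT-TT, which follows MT-CYB, rose by 1.36 (adjusted p = 0.00788). MT-TI fell by 0.79 (adjusted p = 0.0102), MT-TM by 0.66 (adjusted p = 0.0113) and MT-TP, on the minus strand, by 1.15 (adjusted p = 0.00331). MT-TV (-0.02) and MT-TE (-0.48) were not called. The 7 calls held in each of 21 alternatives, and MT-TE was called lower as well without the 2 libraries high in MT-RNR1 (-0.69, limma adjusted p = 0.0391), without OE control a (0.0466), without OE doxorubicin a (0.00605) or after median-ratio scaling (0.0329). These genes had 1 to 80 reads per library, and reads that belong to a precursor or to a neighbouring mRNA cannot be told from those of the tRNA itself.

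**Figure D4:**
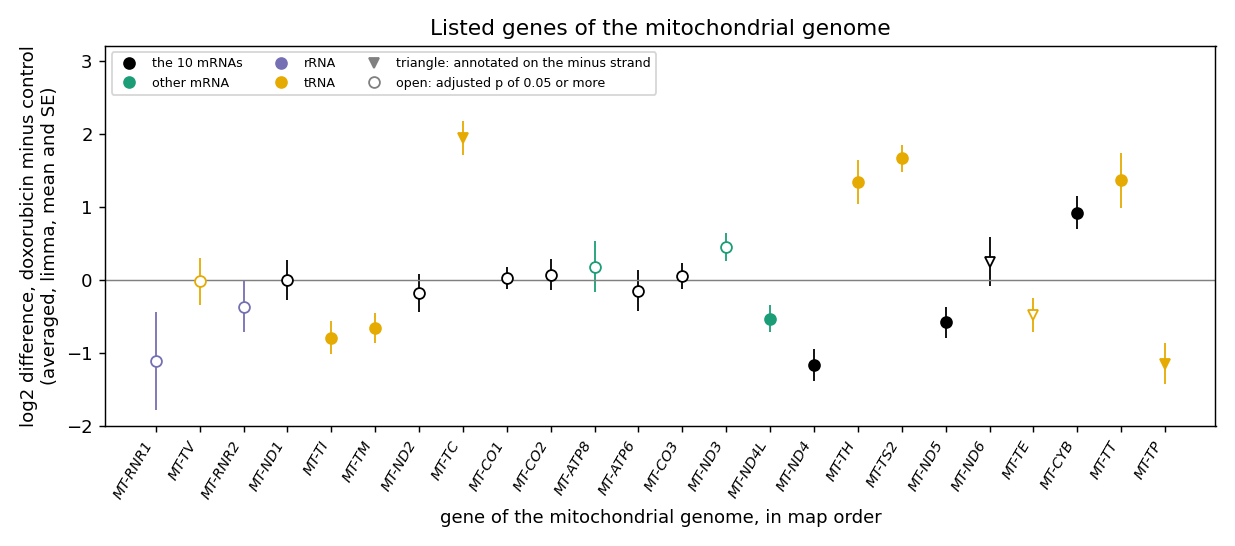
Averaged log2 difference between doxorubicin and control (limma estimate with its SE) for the 24 listed genes of the mitochondrial genome in map order, with triangles for the minus strand and open symbols for an adjusted p of 0.05 or more. MT-ND4L (-0.53), MT-ND4 (-1.17) and MT-ND5 (-0.58) lie below 0, MT-CYB lies at 0.92, and tRNA genes range from -1.15 (MT-TP) to 1.94 (MT-TC).

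The 5 nuclear copies in the file did not follow their mitochondrial counterparts as a set. MTCO2P12, the copy of MT-CO2, had 12.3 and 13.2 TPM in WT control and 564 and 142 in WT doxorubicin, 43.7 and 15 against 74.8 and 172 in KO cells, and 81.2 and 261 against 130 and 42.3 in OE cells. It rose in WT cells by 4.37 (SE 0.72, limma adjusted p = 0.00118) and on average by 1.83 (adjusted p = 0.00238), while OE control b was among the highest libraries. MTCO1P12, its neighbour on chromosome 1, had 12.2 and 13.8 TPM in WT control against 188 and 88.2 with doxorubicin, and rose by 3.22 there (adjusted p = 0.00117) and by 1.20 on average (adjusted p = 0.00492). In OE cells the differences of these copies were -0.96 and -0.82, with adjusted p = 0.348 and 0.274. Their OE by doxorubicin interactions were -5.33 and -4.04, with unadjusted p = 0.000172 and 0.000131 and limma adjusted p = 0.526 and 0.499. MTATP6P1 (30.4 to 79.5 TPM), MTND2P28 (5.76 to 9.59 TPM) and MTCO1P40 (at most 2.99 TPM) differed by -0.05 to 0.05 on average. Without the 2 libraries high in MT-RNR1, MTCO2P12 and MTCO1P12 were still called on average (1.57 and 0.95, limma adjusted p = 0.00981 and 0.0167). MT-CO1 and MT-CO2 differed by -0.12 and 0.04 in WT cells, where their copies rose.

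Whether SPARCLE dose altered these mRNAs was asked in each medium. None of the 10 was called in KO against WT or OE against WT cells by limma, in control medium or with doxorubicin, and none was called by voom. None had an unadjusted p under 0.05 either. Over all genes the calls came to 0.0918% for KO and 0.118% for OE cells in control medium, and to 0.295% and 0.315% with doxorubicin, so few genes of any kind passed. The smallest adjusted p among the members was 0.79, for MT-ND4 in KO against WT control (-0.43, SE 0.39, limma unadjusted p = 0.286). Adjustment was made within each comparison, so adjusted p values of different comparisons do not rank the members. The smallest unadjusted p by limma was 0.103, for MT-ND6 in OE against WT cells with doxorubicin. In OE against WT control all 10 differences were below 0, from -0.64 for MT-ND6 to -0.12 for MT-ND1 and MT-CO2, where the median of all genes was -0.04. MT-ND4 and MT-ND6 stayed below 0 there in all 23 alternatives, and the other 8 reached 0 or above in at least 1 of them. Without the 2 libraries high in MT-RNR1, 0 of 10 members were called in any KO or OE comparison or interaction. With doxorubicin the widest was MT-ND6 in OE cells, at -0.99 (SE 0.57, limma adjusted p = 0.993).

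Whether the response to doxorubicin differed between kinds of cells was tested as an interaction. MT-ND4 fell by 1.57 in WT cells, and its KO interaction was 0.49 (SE 0.55) and its OE interaction 0.71 (SE 0.55), both with a limma adjusted p of 1. MT-CYB gave -0.01 (SE 0.53) and 0.06 (SE 0.53), and MT-ND5 gave 0.33 (SE 0.51) and 0.52 (SE 0.51). For 0 of 10 members was an interaction called by limma or by voom, and 0 had an unadjusted p under 0.05. Over all genes 0.00655% were called in each interaction. The SEs of these interactions ran from 0.37 to 0.80 among the members, which sets the size of a difference in response that could be told from 0.

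The mRNAs also differed in how far they moved together. Over the 12 libraries Pearson's r between log2(TPM + 1) values was 0.92 for MT-ATP6 with MT-CO3 and 0.91 for MT-CO2 with MT-CO3, and 0.87 for MT-ND4 with MT-ND5. It was -0.35 for MT-ND4 with MT-CYB and -0.17 for MT-ND5 with MT-CYB, the 2 pairs below 0. The mean log2(TPM + 1) of the 10 mRNAs ranged from 8.10 in OE control b to 9.30 in WT control b. With doxorubicin it was 8.20 to 8.45 in the b libraries and higher, up to 9.03, in the a libraries, so the replicates of each doxorubicin group stood apart. The median gene of these libraries was 0.18 to 0.22 above its mean in the a libraries and 0.05 to 0.26 below it in the b libraries.

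Among 8414 protein-coding genes with a mean of at least 5 TPM, those whose pattern was most like this mean were TOP1MT (r = 0.93), the topoisomerase of mitochondrial DNA, KCNK1 (0.92), a potassium channel, NFXL1 (0.92), CDCA4 (0.90) and AC005670.2 (0.89). The least like were CSKMT (-0.70), AL049650.1 (-0.58), UQCRQ (-0.52), AC011479.1 (-0.42) and WDR74 (-0.41). CSKMT is a mitochondrial methyltransferase of citrate synthase and UQCRQ is a subunit of complex III. All these r values are descriptions over 12 libraries that share a scale factor per library, and carry no test.

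Nuclear genes that make and keep mitochondrial RNA were measured in the same libraries, in 8 lists from textbook knowledge. Mitochondrial transcription and RNA processing had 34 of 36 genes tested, of which 20 rose and 2 fell with doxorubicin on average, with a median of 0.51 against 0.09 for all genes. DDX28, a helicase of mitochondrial ribosome assembly, stood at 2.51 ± 1.07 TPM in control medium and 10.8 ± 1.5 with doxorubicin (SD, n = 6 each) and rose by 1.78 (limma adjusted p = 4.71e-06). TRMT10C, a subunit of mitochondrial RNase P, which frees the 5′ ends of tRNAs, rose by 1.32 and GRSF1, an RNA granule protein, by 1.01. The 2 that fell were METTL17, a ribosome assembly factor, by 1.08 and POLRMT, the mitochondrial RNA polymerase, by 0.56 (from 23.7 ± 4.65 to 15.6 ± 2.42 TPM, limma adjusted p = 0.00913).

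All 11 genes of the list named mitochondrial mRNA stability and decay rose, with a median of 0.77. LRPPRC, which binds and stabilises mitochondrial mRNAs, went from 47.9 ± 5.46 to 93.8 ± 11.5 TPM (SD, n = 6 each), a difference of 0.95 (limma adjusted p = 2.7e-05). REXO2, an exonuclease of short RNAs, rose by 1.20 and TACO1, which activates translation of MT-CO1, by 1.31. The list holds stabilising and degrading factors alike, and also TACO1 and TSFM, which serve mitochondrial translation. In WT, KO and OE cells taken alone, 8, 3 and 6 of its genes were called, all higher, where 19.6%, 9.9% and 12.4% of all genes were called higher.

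Mitochondrial DNA maintenance was mixed, with 7 of 25 genes higher, 4 lower and a median of 0.10. RRM2B, a ribonucleotide reductase subunit that supplies nucleotides for mitochondrial DNA, stood at 42.2 ± 4.96 TPM in control medium and 160 ± 35.3 with doxorubicin (SD, n = 6 each) and rose by 1.87 (limma adjusted p = 1.26e-06). MGME1, an exonuclease of mitochondrial DNA, rose by 1.42 and TYMP, thymidine phosphorylase, by 1.96. FEN1, a flap nuclease that also serves nuclear replication, fell by 1.06, DNA2 by 0.69 and SLC25A4, an ADP/ATP carrier, by 0.57.

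Nuclear partners of the encoded subunits were called in both directions in complexes I, III and V, and only lower in complex IV. Of 37 nuclear complex I genes, 15 rose and 3 fell (median 0.24), while MT-ND4 fell. MT-ND5 was called lower too, though some alternatives lost that call. NDUFB10, NDUFB9 and NDUFA11 rose by 0.88, 0.93 and 1.03, and NDUFA12 and NDUFS4 fell by 0.60 and 0.32. Of 9 nuclear complex III genes, 2 rose and 4 fell (median -0.04), while MT-CYB rose. UQCRC1, a core protein, fell by 0.57 (limma adjusted p = 0.000567), UQCRC2 by 0.53 and UQCRH by 0.54, and UQCR11 and UQCR10 rose by 0.59 and 0.38. Complex IV had 0 of 11 higher and 2 lower, COX4I1 by 0.38 and COX8A by 0.45. Complex V had 7 of 16 higher and 2 lower (median 0.27), and ATP5MC1, ATP5MF and ATP5IF1 rose by 1.10, 1.04 and 1.18. ATP5MC2, a copy of the ring subunit, fell by 0.60 and ATP5ME by 0.41.

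Of the regulators of mitochondrial biogenesis, 9 of 10 were tested, with 3 higher and 3 lower. MYC rose by 1.67 and ESRRA by 1.27, and YY1, GABPA and NRF1 fell by 0.62, 0.59 and 0.44. NRF1 and GABPA drive nuclear genes of the respiratory chain. PPARGC1A, the coactivator PGC-1alpha, was not analysed here. The counts of the 8 lists stand beside 32.2% of all genes called higher and 25.9% called lower. Over the 152 genes tested in them, 65 were called higher and 20 lower. Without the 2 libraries high in MT-RNR1 these counts were 58 and 16, and the calls of POLRMT (-0.39, limma adjusted p = 0.0997), NRF1 (-0.37, 0.145), COX8A (-0.47, 0.0527) and UQCR10 (0.35, 0.0788) were lost. Scaling each library to the geometric mean of the 10 mRNAs ended 16 of the 38 calls that the naming rule picked from these lists, 15 lower and 1 higher, with no change of sign (adjusted p = 0.0507 to 0.458). Among them were UQCRC1, UQCRC2, UQCRH, COX4I1, ATP5MC2, ATP5ME, NDUFA12, SLC25A4, YY1, GABPA and POLRMT. The SE of each of these genes was larger after this scaling, while the differences moved little. UQCRC1 stood at -0.49 (SE 0.28) against -0.57 (SE 0.10) in the main analysis, and UQCRC2 at -0.45 (SE 0.27) against -0.53 (SE 0.11). Leaving out 1 library ended the call of NDUFS4 for WT control a, KO control b, OE control b, WT doxorubicin b, KO doxorubicin b and OE doxorubicin a (adjusted p = 0.0505 to 0.0954). It ended that of NRF1 for OE control a and the b libraries of WT and KO cells (0.0503 to 0.0672), of COX8A for WT doxorubicin a and the b libraries of KO and OE cells (0.0548 to 0.0719), and of UQCR10 for the b control and a doxorubicin libraries of WT and OE cells and KO doxorubicin a (0.052 to 0.0636). In KO or OE against WT cells and in the interactions, limma and voom called none of the 152 genes, and 0 to 9 of them had an unadjusted p under 0.05 by limma.

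**Figure D5:**
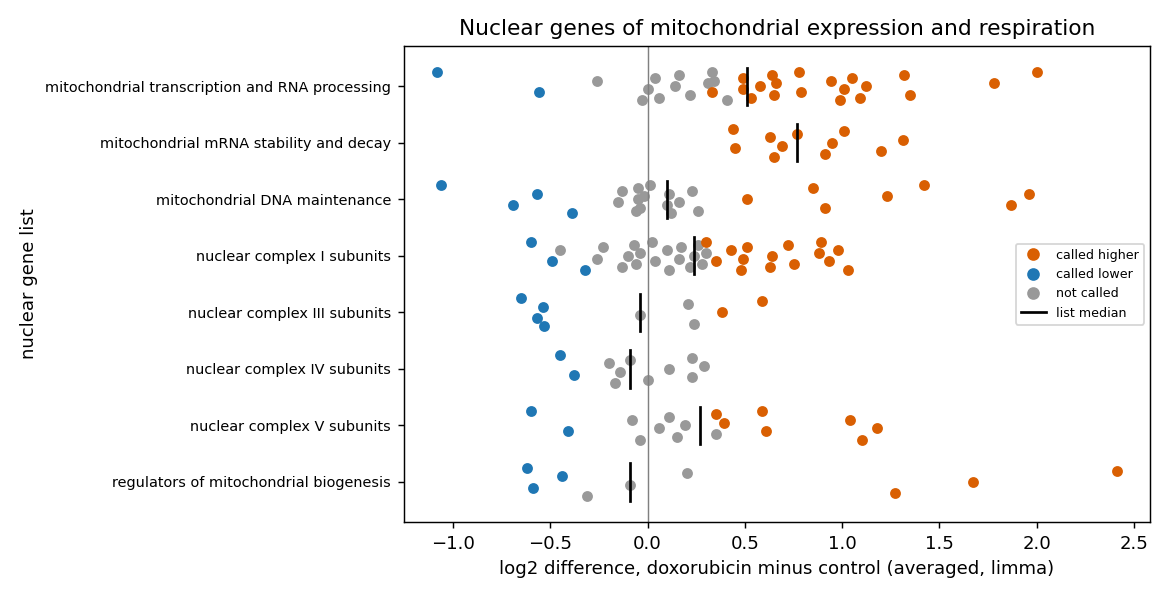
Averaged log2 difference between doxorubicin and control for each tested nuclear gene of 8 lists, orange where called higher, blue where called lower and grey where not called, with a black bar at the list median. Genes of the mRNA stability and decay list all lie above 0 (median 0.77). Those of complexes III and IV centre near 0 (medians -0.04 and -0.09), and those of mitochondrial DNA maintenance spread to both sides (median 0.10).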

How the data were processed

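RNA of 12 HCT116 libraries was sequenced after a stranded total RNA preparation, per the labels' protocols. Per the submitters' processing notes the tools were HISAT2 2.0.4, SAMtools 1.7, featureCounts, R 3.3.3 and edgeR 3.12.1, on hg38. The annotation, the strand setting and the filter on genes are not given in the sources used here. The authors deposited log2 TPM, which back on the linear scale sums to 1000000 in each library over 16676 genes. Whole reads were recovered within 0.05 of a read for 15182 genes with the exon length of GENCODE v29 (91.7% of its listed genes), and for 1494 with a length found by search. Of the same genes, 6 gave whole reads when lengths were shuffled.

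The main test was limma 3.58.1 in R 4.3.3 on log2(TPM + 1), for genes with at least 1 TPM in at least 2 libraries, with 6 group means over all 12 libraries (6 residual degrees of freedom, 6.97 more from the prior), a mean trend and Benjamini-Hochberg adjustment over 15256 genes. It gave 10 comparisons. The scripts were tested on simulated data. The alternatives were a pseudocount of 0.1, median-ratio scaling, TPM rescaled without small RNA genes or within protein-coding genes, other filters, voom on recovered reads, a fit to the groups compared alone, a replicate block, leaving out each library, and the 2 added later that the closing section names. For the averaged comparison, the fit to the groups compared alone holds all 6 groups. It repeats the main fit there and could not change a call. P-values measure the spread between these libraries, whose replicates the labels call biological.

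The members and the gene lists were chosen with earlier results of these data known. Named were all members, every other listed gene of the mitochondrial genome, up to 3 called genes per nuclear list and direction with the smallest adjusted p, and the 5 protein-coding genes most and least like the members' mean. Some genes that this rule names are not reported here by name and stand only in the counts of their lists. The nuclear copies were named after their values had been seen. Sequences are from GENCODE v29 transcripts, since no RefSeq sequence table was used here.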

Additional observations from a re-analysis of the deposited data

How the results depend on the processing

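Each of the 10 mRNAs was recomputed under 23 alternatives in 10 comparisons, 2300 values in all. Of these, 2253 kept their label, either called in the same direction in both analyses or called in neither. Most of the 2253 were called in neither, and 282 of them changed sign without being called. Another 38 passed the threshold only in the alternative, 9 passed it only in the main analysis, and none was called with the opposite sign. Leaving out both libraries high in MT-RNR1 and scaling to the geometric mean of the 10 mRNAs were chosen after seeing the data.

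The number of members called, 1 in WT, 0 in KO and 0 in OE cells, was 2, 2 and 2 after median-ratio scaling or with voom, 2, 2 and 1 without small RNA genes or within protein-coding genes, 3, 2 and 2 in a fit to the groups compared alone, and 2, 1 and 1 without both libraries high in MT-RNR1. Leaving out 1 library gave 0 to 2, 0 to 1 and 0 to 1. The replicate block gave 2, 1 and 1. It kept the 3 averaged calls, with adjusted p = 0.000331 for MT-ND4, 0.0336 for MT-ND5 and 0.00133 for MT-CYB. The letters were not taken to pair the libraries, since the correlation over genes between the a minus b differences of 2 groups varied. It ran from -0.39 (WT control with KO control) to 0.81 (KO doxorubicin with OE doxorubicin). KO control with OE control gave 0.50, so some pairs of groups shared a difference by letter, whose source was not tested. The cause of the changes in the number of calls was not tested either.

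The members' share of a library was 1.45 and 1.34% of TPM in WT control and doxorubicin, 1.53 and 1.53% in KO and 1.2 and 1.31% in OE cells. Of recovered reads it was 0.974, 0.86, 0.954, 1.01, 0.845 and 0.944% in that order, and of protein-coding TPM 4.77, 4.41, 4.72, 5.24, 4.2 and 4.91%. The unit itself differs there. The median of all genes in WT cells was 0.17 in TPM, 0.01 after median-ratio scaling and 0.33 when scaled to the members, and the share of all WT calls that were higher was 60.9, 50.1 and 75.4%. Over all genes the calls ranged from 1820 to 6967 in WT (4914 in the main analysis), 1167 to 5808 in KO (3695), 944 to 5985 in OE cells (3510) and 5434 to 10152 on average (8850). In KO and OE against WT cells they ranged from 3 to 102 (14) and 5 to 96 (18) in control medium, and from 9 to 117 (45) and 12 to 151 (48) with doxorubicin. The interactions ranged from 0 to 15 and 0 to 12 (1 each). Each group had 2 libraries, with 12599392 to 18570797 reads per library in control medium and 24893610 to 30690664 with doxorubicin. What set the number of calls was not tested. The tRNA genes had 1 to 80 reads per library.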
